A study of Mus musculus with 2 samples.

Results

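Genes of the interstitial extracellular matrix were followed in sorted mouse back skin keratinocytes from mice with a conditional deletion of Med1, a Mediator gene needed by many transcription factors to activate their targets. The set was chosen by gene symbol alone. It held the collagen chain genes other than type IV, VII and XVII, the fibulins (Fbln), thrombospondins (Thbs), glypicans (Gpc), syndecans (Sdc) and lysyl oxidases (Lox), and a named group of proteoglycans, matricellular proteins and Vim. These made 63 of the 16593 genes with a probe on the array, measured by 97 probes. Fn1 and Fbn1, which the choice also named, were not analysed here.

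The Med1cKO group carried floxed Med1 alleles and Cre recombinase driven by Krt14, a keratin gene of basal epidermal and follicle cells. The CON group consisted of littermates with the same floxed alleles and no Cre, labelled C57BL6. The strain label of the Med1cKO sample names no background strain, and the ages of the mice were not given in the sources used here. Skin cells of 3 mice per group were pooled and sorted for integrin alpha6 and against CD34, and 1 Illumina bead array was hybridized per pool, 2 arrays in all. Protocol fields of both samples instead describe RNA of whole skin taken from each mouse, which would include the dermis. With 1 array per group there was no replicate error and no test, so every difference is one between 2 pools. In bulk RNA of this kind, fewer cells of a type and less RNA per cell cannot be told apart.

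The interstitial matrix is the fibrous layer beneath the epidermis. Fibrillar collagens form its cables, small leucine-rich proteoglycans such as decorin coat and space the fibrils, and elastic fibres give recoil, all made mainly by dermal fibroblasts. Keratinocytes contribute mainly basement membrane collagens and cell-surface heparan sulfate proteoglycans, the syndecans and glypicans, which hold growth factors at the cell surface. Matricellular proteins such as tenascin C, SPARC and the thrombospondins adjust adhesion and are known from wounds and remodelling tissue.

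Both arrays were of similar brightness, with a median intensity of 191 on the Med1cKO array and 198 on the CON array over 25697 probes. Detection of a probe meant a detection p below 0.01, and the dimmest detected probe had an intensity of 219 on the Med1cKO array and 239 on the CON array. The brightest Med1 probe had an intensity of 452 in the Med1cKO pool and 794 in the CON pool, 1.996-fold lower. Which exons Cre removes is not stated, so the Med1 probes do not check the deletion. Fixed markers of keratinocyte identity, Krt5, Krt14, Itga6 and Trp63 among them, were detected on both arrays for 13 of 13 genes, with a median log2 ratio of -0.15.

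Of the 63 matrix genes, 28 were detected on at least 1 array. Both arrays detected 19 of them, the Med1cKO array alone 8 and the CON array alone 1. Over all 7955 detected genes, 6.64% were seen by the Med1cKO array alone and 3.08% by the CON array alone. The 8 were Dcn, Lum, Col1a1, Col3a1, Col5a1, Loxl1, Fbln2 and Vim, and the 1 was Col11a2. The lower detection limit of the Med1cKO array bears on this count directly, and 7 of the 8 also exceeded the higher CON limit, Fbln2 (229) being the exception. Being seen on 1 array alone favours a difference toward that array without requiring one, and the 28 are not all the members.

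Differences are given as the log2 ratio of Med1cKO over CON after background correction and quantile normalization. Where 1 array alone detected a gene, the fold is a lower bound: the undetected value was raised to the dimmest detected level of its array. At least 2-fold higher in the Med1cKO pool were 6 of the 28 detected matrix genes, Dcn, Tnc, Bgn, Col1a1, Vim and Sparc, beside 3.95% of all detected genes. At least 2-fold lower was 1, Gpc3, beside 1.81% of all detected genes. Without background correction the higher ones were 3 (Dcn, Tnc and Bgn) beside 1.95%, and Gpc3 was again lower beside 0.553%. The median log2 ratio of the 28 was 0.38, against -0.04 for all detected genes, but over the 19 detected on both arrays it was -0.046, against -0.061.

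**Figure D1:**
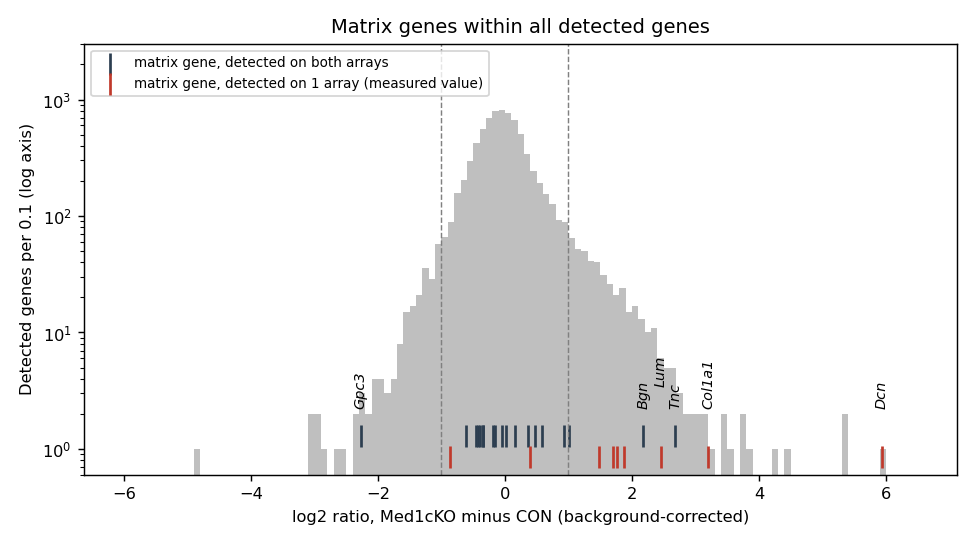
Number of detected genes (log axis) per 0.1 of log2 ratio, Med1cKO minus CON, for all 7955 detected genes (grey bars), with the 28 detected matrix genes as ticks, dark for 19 detected on both arrays and red for 9 detected on 1. Most dark ticks lie near 0, while Dcn, Col1a1, Tnc, Lum and Bgn lie on the right flank and Gpc3 on the left, and dashed lines mark 2-fold. Red ticks stand at measured values, not at the lower bounds, and by its bound Lum is within 2-fold.

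Decorin had the largest lower bound of the matrix genes seen on 1 array. The gene, Dcn, encodes a small proteoglycan that binds collagen fibrils and growth factors, and its intensity was 2297 in the Med1cKO pool and 178, below the detection limit, in the CON pool. That is at least 26.0-fold higher in the Med1cKO pool, or at least 10.03-fold without background correction. Its other probe read 637 in the Med1cKO pool and 154 in the CON pool, at least 5.90-fold higher. Both Dcn probes were thus bright on 1 array and at background on the other, though they differ in the size of the gap they allow.

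Lumican (Lum) is a relative of decorin whose gene lies next to Dcn on chromosome 10, with no protein-coding gene between them in the RefSeq annotation. It had an intensity of 294 in the Med1cKO pool and 151, not detected, in the CON pool, at least 1.75-fold higher. Without background correction the bound was 1.27-fold. Lum therefore differed the same way as its neighbour, close to background. Biglycan (Bgn), the third small leucine-rich proteoglycan seen, had an intensity of 1155 in the Med1cKO pool and 385 in the CON pool and was detected on both arrays. It was 4.53-fold higher in the Med1cKO pool, or 3.14-fold without background correction, so its direction does not rest on an undetected value. The large chondroitin sulfate proteoglycan gene Vcan was detected on neither array.

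The promoter window of Bgn is shown because this proteoglycan gene was detected on both arrays and differed at least 2-fold with and without background correction. It covers chrX:73483351-73483650 (GRCm38.p6, plus strand), from 250 bases before to 50 bases after the RefSeq gene start. Capitals mark matches on either strand to 4 short motifs, none of which contains another. The TATA box was searched as TATAAA. The CCAAT box was searched by the letters of its name, and the GC box as GGGCGG. The AP-1 site was searched as TGANTCA, where N is any base. The Bgn window held 3 GC boxes, 2 of them overlapping, and no match to the other motifs.
Bgn: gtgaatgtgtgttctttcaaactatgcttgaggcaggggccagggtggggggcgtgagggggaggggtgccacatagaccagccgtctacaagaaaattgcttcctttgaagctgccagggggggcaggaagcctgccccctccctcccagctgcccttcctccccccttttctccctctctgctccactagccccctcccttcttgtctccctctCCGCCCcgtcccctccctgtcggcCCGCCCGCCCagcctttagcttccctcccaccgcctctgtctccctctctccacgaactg

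Such a match is a description of the letters only. Of 21 detected matrix genes with a RefSeq window, 15 held a GC box, 8 a CCAAT box, 5 a TATA box and 1 an AP-1 site. Among all 32851 windows of this length the shares were 35.66% for the GC box, 37.41% for the CCAAT box, 13.62% for the TATA box and 7.808% for the AP-1 site. The matrix genes were counted by 1 window each. The 32851 include further windows of some genes and genes not detected here, so the sets are unlike. Dcn, Lum and Col1a1 had no window among the 21.

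Of 11 genes for fibrillar collagens, the cable-forming chains of dermis, 4 were detected, each on 1 array only. Col1a1, the alpha1 chain of type I collagen, had an intensity of 456 in the Med1cKO pool and 175 in the CON pool, at least 3.74-fold higher, or at least 1.99-fold without background correction. The partner chain gene Col1a2, with 1 probe, was detected on neither array (intensity 176 in the Med1cKO pool and 161 in the CON pool). With Col1a2 at background in both pools, these arrays cannot tell whether the 2 chains of type I collagen differed alike.

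Col3a1, the type III chain found with type I in skin, had an intensity of 240 in the Med1cKO pool and 143 in the CON pool, which allows no more than at least 1.11-fold. A further Col3a1 probe was detected on neither array. Col5a1, a chain of the minor type V collagen that sets fibril width, had an intensity of 284 in the Med1cKO pool and 191 in the CON pool, at least 1.63-fold higher. Col11a2, a minor fibrillar chain best known from cartilage, went the other way, with an intensity of 216, not detected, in the Med1cKO pool and 283 in the CON pool, at least 1.75-fold lower. Only Col1a1 of these 4 reached 2-fold. Without background correction the bounds were 1.04-fold higher for Col3a1, 1.23-fold higher for Col5a1 and 1.25-fold lower for Col11a2. Col1a2, Col2a1, Col5a2, Col5a3, Col11a1, Col24a1 and Col27a1 were detected on neither array.

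**Figure D2:**
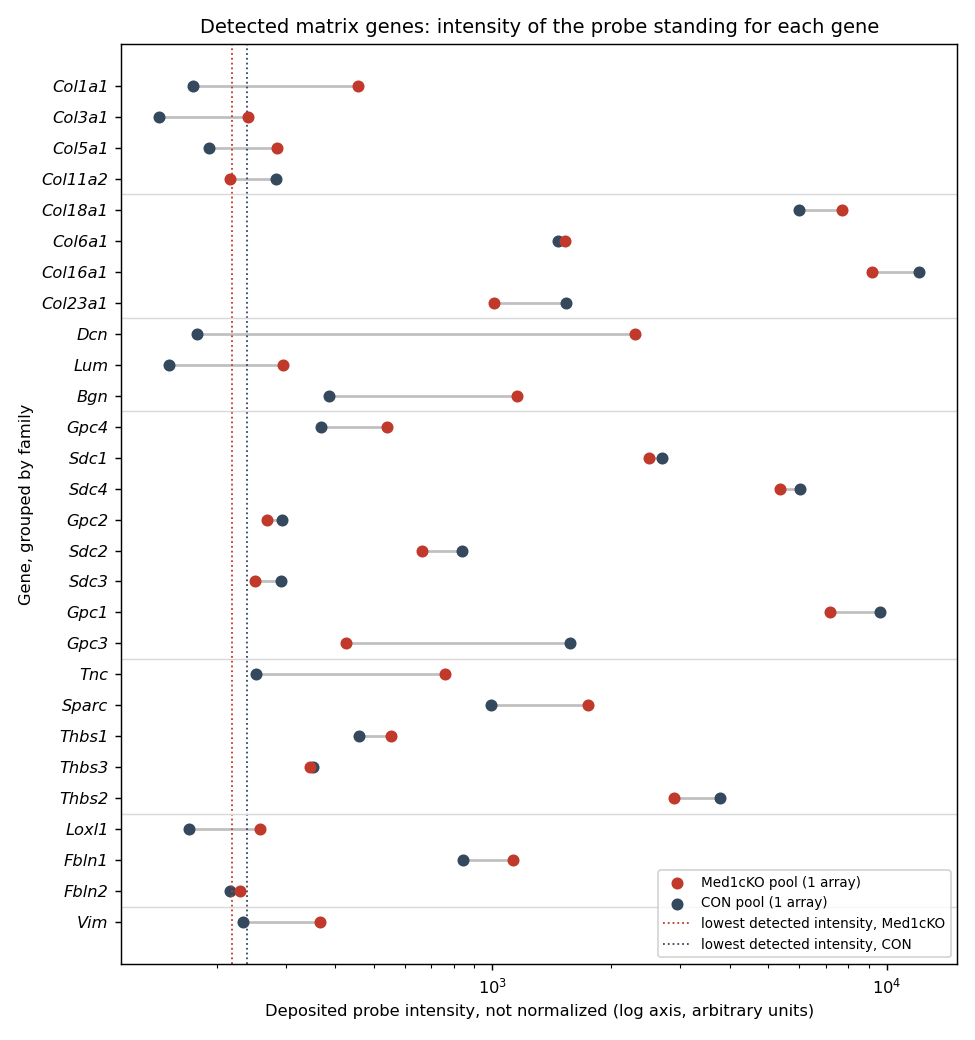
Deposited intensity (log axis, arbitrary units) of the probe standing for each of the 28 detected matrix genes, red for the Med1cKO pool and dark for the CON pool, 1 array each, grouped by family, with dotted lines at the dimmest detected intensity of each array (219 and 239). The long gaps are those of Dcn, Bgn, Tnc, Col1a1 and Gpc3, while the brightest genes, such as Col16a1, Gpc1, Col18a1 and Sdc4, have short ones.

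Collagens outside the fibrillar group were detected for 4 of 18 genes, all seen on both arrays. None was 2-fold different, with log2 ratios from -0.61 to 0.37. Col16a1, a fibril-associated collagen, had an intensity of 9178 in the Med1cKO pool and 12107 in the CON pool, a log2 ratio of -0.43. Col23a1, a collagen anchored in the cell membrane, had 1010 in the Med1cKO pool and 1541 in the CON pool, a log2 ratio of -0.61. Both were lower in the Med1cKO pool by less than 2-fold.

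The type XVIII chain gene Col18a1, which encodes a heparan sulfate bearing collagen of basement membrane zones, was on the other side. Its intensity was 7685 in the Med1cKO pool and 5984 in the CON pool, a log2 ratio of 0.37, and a second detected probe gave 0.48. Col6a1, a chain of the beaded-filament type VI collagen, had an intensity of 1533 in the Med1cKO pool and 1467 in the CON pool, a log2 ratio of 0.16, with 0.03 by its other detected probe. Its partner Col6a2, the adjacent gene, was detected on neither array, like Col6a6. Also not detected were Col8a2, Col9a1, Col9a2, Col9a3, Col10a1, Col13a1, Col14a1, Col15a1, Col19a1, Col25a1, Col26a1 and Col28a1.

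Cell-surface heparan sulfate proteoglycans were the best covered family, with 8 of 10 genes detected, all on both arrays. Of the 8, 7 had a log2 ratio below 0, beside 4321 of all 7955 detected genes. The family median was -0.26, against -0.04 for all detected genes. Sdc1, among the 7, lay above 0 by another detected probe. Only Gpc3 was 2-fold different, and no member was 2-fold higher. Gpc5 and Gpc6 were detected on neither array.

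Glypican 3 (Gpc3), a proteoglycan tied to the membrane by a lipid anchor and known as a brake on growth, was the single matrix gene at least 2-fold lower. Its main probe read 426 in the Med1cKO pool and 1574 in the CON pool, 4.83-fold lower in the Med1cKO pool, or 3.51-fold without background correction. The other probe read 258 in the Med1cKO pool and 831 in the CON pool, 5.89-fold lower. Both probes were detected on both arrays, with log2 ratios of -2.27 and -2.56.

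Glypican 4 (Gpc4), the adjacent gene on the X chromosome with no protein-coding gene between, lay on the other side of 0. It had an intensity of 541 in the Med1cKO pool and 369 in the CON pool, a log2 ratio of 0.93, just short of 2-fold. Gpc1, a glypican known from the nervous system and skeleton, had 7170 in the Med1cKO pool and 9600.1 in the CON pool, a log2 ratio of -0.45. Gpc2 was near background, with 268 in the Med1cKO pool and 293 in the CON pool (log2 ratio -0.18).

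The promoter windows of the glypican neighbours are shown because their genes lie side by side and differed in opposite directions. Both read on the minus strand of GRCm38.p6, Gpc3 at chrX:52613925-52614224 and Gpc4 at chrX:52164874-52165173, with capitals for the same 4 motifs. The Gpc3 window held 4 GC boxes and 1 CCAAT box, and the Gpc4 window 1 GC box.
Gpc3: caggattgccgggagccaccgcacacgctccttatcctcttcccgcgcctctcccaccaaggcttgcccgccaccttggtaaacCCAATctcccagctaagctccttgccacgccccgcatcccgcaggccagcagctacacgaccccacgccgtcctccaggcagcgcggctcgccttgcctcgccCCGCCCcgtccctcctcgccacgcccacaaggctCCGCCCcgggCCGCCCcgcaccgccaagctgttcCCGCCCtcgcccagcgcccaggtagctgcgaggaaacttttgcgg
Gpc4: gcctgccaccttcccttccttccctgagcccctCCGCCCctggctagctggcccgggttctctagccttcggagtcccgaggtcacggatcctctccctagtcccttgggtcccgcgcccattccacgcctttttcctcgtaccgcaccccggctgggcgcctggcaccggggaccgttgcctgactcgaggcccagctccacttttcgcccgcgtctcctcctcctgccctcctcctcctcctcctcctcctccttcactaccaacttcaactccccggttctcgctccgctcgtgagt

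Syndecans, the membrane-spanning heparan sulfate proteoglycans of epithelia, were all within 2-fold. Sdc1, the main syndecan of stratified epithelium, had an intensity of 2492 in the Med1cKO pool and 2698 in the CON pool, a log2 ratio of -0.05, with 0.34 by another detected probe and a further one undetected. Sdc4, a focal adhesion syndecan, had 5374 in the Med1cKO pool and 6037 in the CON pool, a log2 ratio of -0.15. Sdc2 had 663 in the Med1cKO pool and 838 in the CON pool (log2 ratio -0.34). Sdc3, near background, had 250.3 in the Med1cKO pool and 292 in the CON pool (log2 ratio -0.39). None of the ratios by the main probes reached the robust SD of log2 ratios among genes of similar level, a spread between genes that ran from 0.23 in the brightest to 0.97 in the dimmest of 10 level bins and is no replicate error.

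Of 8 matricellular genes 5 were detected, all on both arrays, and Tnc and Sparc were at least 2-fold higher in the Med1cKO pool. Tenascin C (Tnc), an adhesion-modulating glycoprotein of wound edges and growing tissue, had an intensity of 758 in the Med1cKO pool and 251, just above the detection limit, in the CON pool. It was 6.42-fold higher in the Med1cKO pool, or 3.13-fold without background correction. A second Tnc probe read 775 in the Med1cKO pool and 219, not detected, in the CON pool, at least 7.57-fold higher. The remaining 4 of 6 Tnc probes were detected on neither array, so the gene's difference is carried by 2 probes.

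The first of 2 promoter windows that RefSeq lists for Tnc is shown because this gene, like Bgn, was detected on both arrays and was at least 2-fold higher with and without background correction. It covers chr4:64046966-64047265 (GRCm38.p6, minus strand), with capitals as above, and held 1 GC box and 1 TATA box.
Tnc: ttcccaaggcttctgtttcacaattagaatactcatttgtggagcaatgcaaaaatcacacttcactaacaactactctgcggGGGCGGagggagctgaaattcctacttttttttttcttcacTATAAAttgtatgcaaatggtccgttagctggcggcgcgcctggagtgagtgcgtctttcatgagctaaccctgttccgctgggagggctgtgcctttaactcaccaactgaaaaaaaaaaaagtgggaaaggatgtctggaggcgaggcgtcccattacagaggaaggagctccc

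SPARC (Sparc), a collagen-binding glycoprotein of remodelling tissue, had an intensity of 1745 in the Med1cKO pool and 994 in the CON pool by its brighter probe. This is a log2 ratio of 1.00, at the 2-fold limit itself, and 1.85-fold without background correction. The dimmer probe read 698 in the Med1cKO pool and 280.5 in the CON pool, 4.45-fold higher, or 2.58-fold without background correction. Both Sparc probes were higher in the Med1cKO pool, but by amounts that lay further apart than the robust SD of 0.26 between 2 probes of a gene.

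Thrombospondins, which bind cells, matrix and latent TGF-beta to differing extents, were within 2-fold. Thbs1, known for activating latent TGF-beta, had an intensity of 552 in the Med1cKO pool and 459 in the CON pool, a log2 ratio of 0.48. Thbs2 had 2889 in the Med1cKO pool and 3771 in the CON pool, a log2 ratio of -0.34. Thbs3 had 345 in the Med1cKO pool and 352 in the CON pool, a log2 ratio of 0.02, with -0.11 and -0.25 by its other probes. The thrombospondins thus did not differ in a common direction. Thbs4, Postn and Dpt were detected on neither array, although Dpt, a fibroblast matrix protein, came close, at 219 (detection p 0.010) in the Med1cKO pool and 141 in the CON pool.

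**Figure D3:**
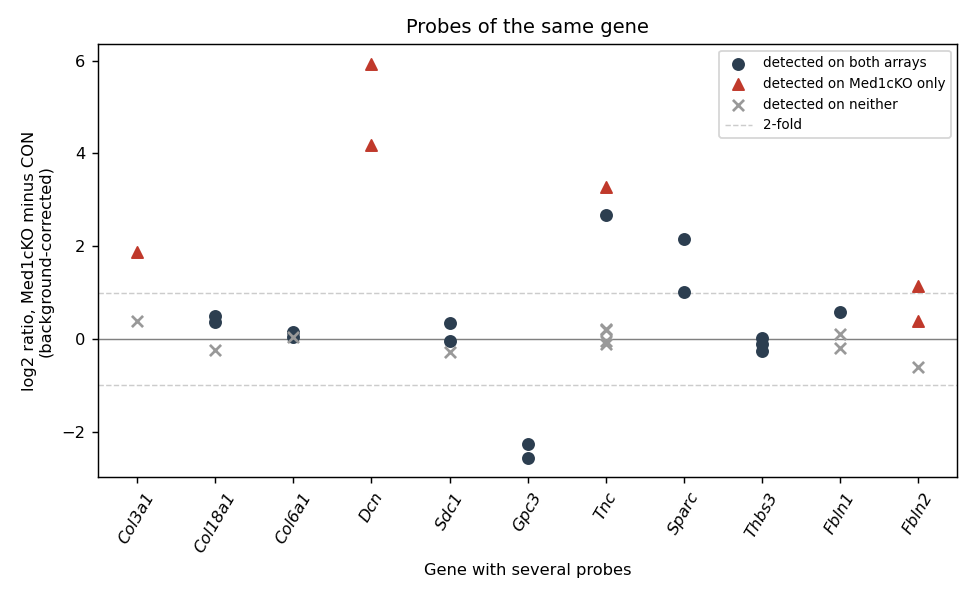
Log2 ratio, Med1cKO minus CON after background correction, of every probe of the 11 detected matrix genes that have several probes (dots, detected on both arrays; triangles, on Med1cKO only; crosses, on neither). The detected probes of Dcn, Tnc and Sparc lie at or above the upper 2-fold line and both Gpc3 probes below the lower one. A Col3a1 probe (1.88) and a Fbln2 probe (1.13) also lie above the upper line at measured values, though their bounds are below 2-fold. Undetected probes lie between -0.60 and 0.38.

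Elastic fibre genes and the enzymes that crosslink collagen and elastin were mostly undetected, with 3 of 11 seen and none 2-fold different. Fibulin 1 (Fbln1), an elastic fibre and basement membrane glycoprotein, had an intensity of 1126 in the Med1cKO pool and 841 in the CON pool, a log2 ratio of 0.59. The other Fbln1 probes were detected on neither array. Loxl1, a lysyl oxidase that acts on elastin, had 258 in the Med1cKO pool and 170.3, not detected, in the CON pool, at least 1.31-fold higher. Without background correction the Loxl1 bound was 1.11-fold. Fbln2 by its main probe had 229 in the Med1cKO pool and 216, not detected, in the CON pool, and no fold can be given, while another probe allowed at least 1.25-fold. All 3 measured log2 ratios were above 0, and those of Loxl1 and Fbln2 rest on values near background. Eln, Mfap5, Fbln5, Fbln7, Lox, Loxl2, Loxl3 and Loxl4 were not detected in either pool.

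Vimentin (Vim), the intermediate filament protein of mesenchymal cells, had an intensity of 366 in the Med1cKO pool and 234, just under the detection limit, in the CON pool. It was at least 2.62-fold higher, or at least 1.59-fold without background correction. Vim is expressed by fibroblasts and also by endothelial and immune cells.

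**Figure D4:**
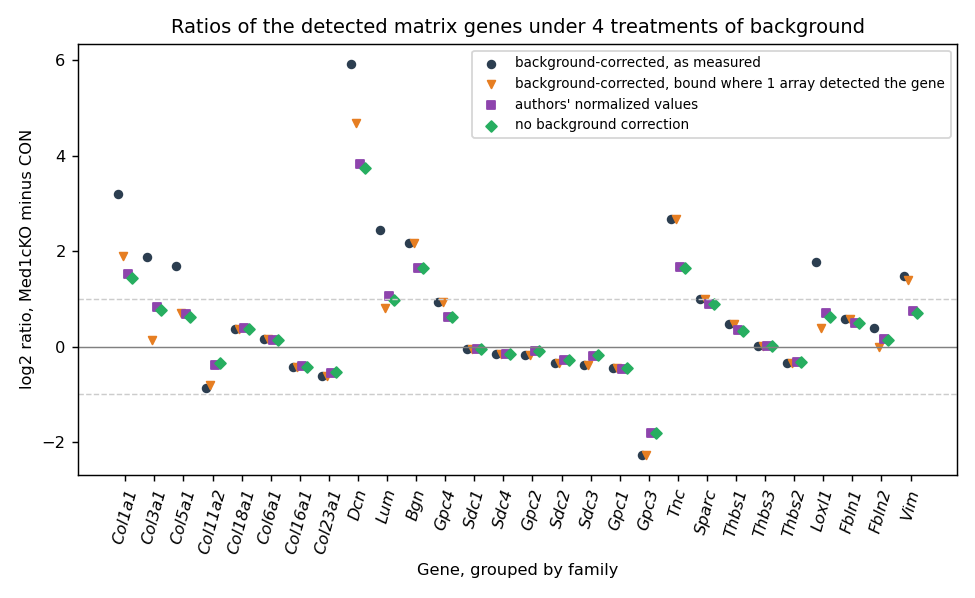
Log2 ratio, Med1cKO minus CON, of the 28 detected matrix genes, background-corrected as measured (dots), background-corrected with the bound in place of the measured value (triangles), by the authors' normalized values (squares) and without background correction (diamonds). The treatments spread widely for genes near background such as Col1a1, Col3a1 and Lum, shrink Dcn, Tnc and Gpc3 without moving them inside 2-fold, and coincide for bright genes such as Col16a1 and Sdc4.

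Genes that build, modify or bind this matrix were set beside it from lists chosen by function. Of 24 collagen processing enzymes, 15 were detected and none differed 2-fold, with a median log2 ratio of -0.03. The procollagen protease Bmp1 had a log2 ratio of 0.43, the lysyl hydroxylase Plod1 -0.39, the prolyl hydroxylase subunit P4ha1 -0.38, and the collagen glycosyltransferase Colgalt1 -0.44. Enzymes of procollagen assembly were thus within 2-fold in the same pools in which Col1a1 differed.

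Of 35 enzymes of heparan and chondroitin sulfate synthesis, 20 were detected, with none 2-fold higher, 1 lower and a median log2 ratio of -0.10. The lower one was Hs3st1, a heparan 3-O-sulfotransferase, with an intensity of 304 in the Med1cKO pool and 507 in the CON pool (log2 ratio -1.12). It was 2.17-fold lower, but 1.60-fold without background correction, where no gene of this list was 2-fold lower. Hs3st6, another of this kind, had 1291 in the Med1cKO pool and 2551 in the CON pool (-0.999), and the chondroitin chain initiator Csgalnact1 had -0.97. Chst3, a chondroitin 6-O-sulfotransferase, had a log2 ratio of 0.97. Ratios just inside 2-fold thus lay on both sides.

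Receptors for collagen and other matrix components were detected for 9 of 19 genes, none 2-fold different. Itgb6, a chain induced in wounded epithelium, was at 0.90 and Itgb1, the shared beta1 chain, at -0.63. Basement membrane collagens and proteoglycans, the collagens that keratinocytes are known to make, were detected for 9 of 15 genes, and their median was -0.24. Col4a6 was at -0.77, Col4a2 at -0.51, the anchoring fibril collagen Col7a1 at -0.48, and the perlecan gene Hspg2 at 0.49. Col18a1 and Col15a1 are counted in this list too. None of the 9 differed 2-fold.

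Among further small leucine-rich proteoglycans, 2 of 12 were detected, Ogn and Prelp, both by the Med1cKO array alone and at least 1.19-fold and at least 1.40-fold higher. Partners of elastic microfibrils were detected for 7 of 14 genes and none differed 2-fold, with Mfap4, near background and seen by the Med1cKO array alone, at a log2 ratio of 1.55 that allows no fold, Emilin1 at 0.55, Mfap3 at -0.46 and Ltbp4 at -0.38. Other matricellular genes were detected for 7 of 21. Spon2 was 2.37-fold higher and Matn4 at least 2.03-fold, or at least 1.37-fold without background correction, while Ccn2, the connective tissue growth factor gene, had 1961 in the Med1cKO pool and 3927 in the CON pool, at the 2-fold limit and lower. Tnxb, a tenascin, had a log2 ratio of -0.63.

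Of 16 matrix protease genes 5 were detected, all on both arrays, with a median log2 ratio of 0.76. Adamts1, which cleaves versican, had an intensity of 410 in the Med1cKO pool and 244 in the CON pool and was 2.97-fold higher, or 1.74-fold without background correction. The gelatinase Mmp2 had a log2 ratio of 0.90, its membrane-bound activator Mmp14 0.76, and Mmp3 -0.99. These lists were not uniform in direction.

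Markers of cells that normally make this matrix were higher in the Med1cKO pool in part. Of 27 fibroblast markers outside the matrix set, 12 were detected, 9 on each array, with a median log2 ratio of 0.65. At least 2-fold higher were 3, lower none, and without background correction none was 2-fold higher. Their summed intensity was 15544 in the Med1cKO pool and 10872 in the CON pool. Serpinf1, a secreted fibroblast factor, was at least 3.71-fold higher, S100a4 3.14-fold and Igfbp4 2.18-fold, whereas Clec3b, Crabp1 and Ebf1 were detected in CON only. The defining receptors Pdgfra and Pdgfrb and the dermal factors Twist1, Twist2 and Prrx1 were detected on neither array, and Thy1, which made up most of that sum, had 9092 in the Med1cKO pool and 5975 in the CON pool. The part of such cells in the matrix differences was not tested.

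Other cell types were read from the same kind of list. Endothelial markers were detected for 4 of 17 genes, none 2-fold different, with a summed intensity of 984 in the Med1cKO pool and 809 in the CON pool, and Pecam1, Cdh5 and Kdr were not detected. Of these 4, 3 were seen by the Med1cKO array alone, and the median log2 ratio with bounds was 0.26. Of 12 pericyte and smooth muscle markers 4 were detected, summing to 2342 in the Med1cKO pool and 1977 in the CON pool. Acta2, smooth muscle actin, was 2.52-fold higher and carried the gap, with 970 in the Med1cKO pool and 495 in the CON pool. The other detected markers, Notch3, Mcam and Cspg4, had log2 ratios of -0.09, 0.03 and -0.18. The list median was -0.03, and Myh11, Tagln and Rgs5 were not detected. Immune and red cell markers were detected for 9 of 18 genes and summed to 6912 in the Med1cKO pool and 3484 in the CON pool, with 6 at least 2-fold higher, among them Cd3g (2.74-fold). Without background correction 2 of them were, Cd3g and the globin Hba-a1. Hba-a1 had 2231 in the Med1cKO pool and 492 in the CON pool, a large share of the gap between the sums, whereas the globin Hbb-b2 and Ptprc were not detected and S100a8 had a log2 ratio of -0.55.

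Fat, pigment, nerve sheath and muscle markers completed the set. Of 8 adipocyte markers only Lpl was detected. It had 793 in the Med1cKO pool and 214 in the CON pool, at least 7.78-fold higher, or at least 3.45-fold without background correction, and Adipoq, Plin1 and Fabp4 were not. Melanocyte and Schwann markers were detected for 3 of 10 genes, summing to 4079 in the Med1cKO pool and 2657 in the CON pool, with Pmp22 2.63-fold higher. Pmp22 alone had 2773 in the Med1cKO pool and 1205 in the CON pool, more than the gap between the sums, and Mbp had 1079 in the Med1cKO pool and 1277 in the CON pool. Of 8 skeletal muscle markers only Mylpf was detected, in the Med1cKO pool at an intensity of 259. Whether these cells bear on the matrix values was not tested either.

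**Figure D5:**
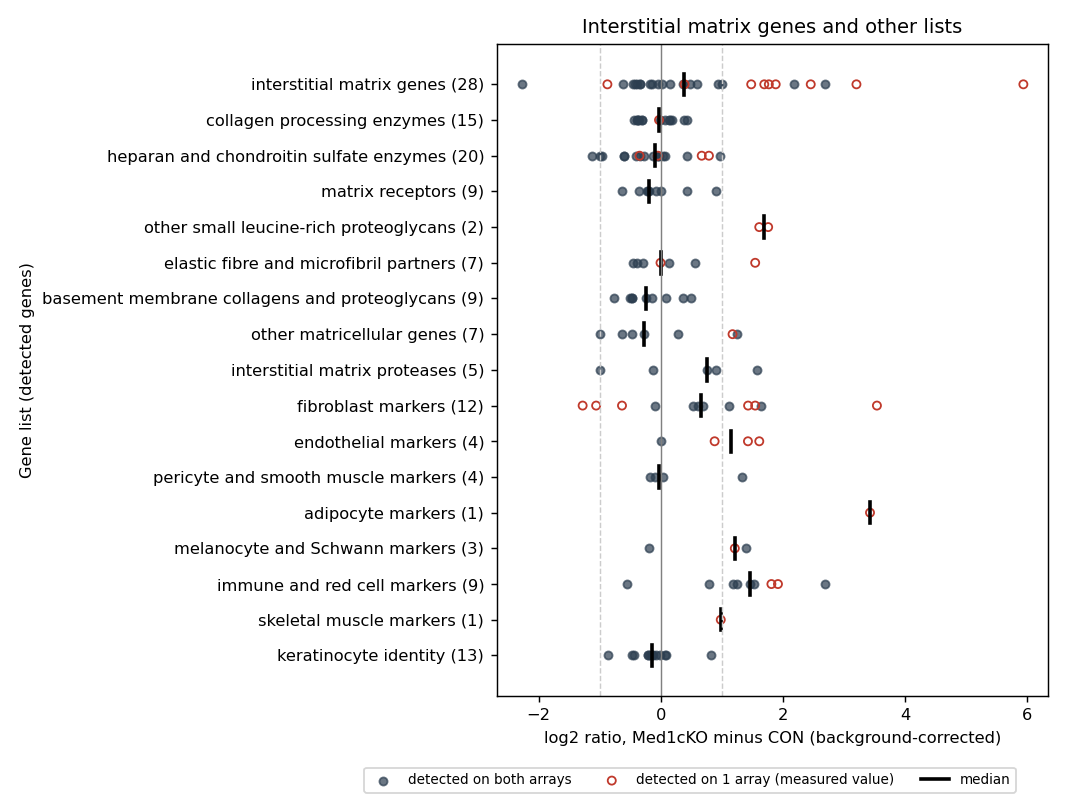
Log2 ratio, Med1cKO minus CON after background correction, of each detected gene (dots, both arrays; circles, 1 array at its measured value) in the 28 matrix genes and in 16 other lists, with the median as a black bar and dashed lines at 2-fold. Enzymes of collagen processing and of heparan and chondroitin sulfate, receptors, basement membrane and keratinocyte genes centre near or below 0. The matrix proteases and the fibroblast and immune markers centre above it. Detection on 1 array favours, but does not force, a ratio to the side of that array. Lists made up mostly of circles lean that way for this reason.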

How the data were processed

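RNA of 1 pool of sorted mouse skin cells per genotype was measured on 1 Illumina bead array each. The intensity values used were those deposited as non-normalized, linear and without background subtraction, per the file headers and the values, after GenomeStudio 2011.1 per the submitters' processing notes. The detection p-value beside each intensity comes from the same deposited file and, per the file headers, belongs to its own array. The authors' normalized intensity values were used as an alternative. They share their lowest and highest value on both arrays, have nearly equal quartiles and rank the probes as the non-normalized values do (rank correlation 1). Their median was 199 for Med1cKO and 198 for CON, they are uncentred and linear, and no source used here names their method.

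Background correction, an offset of 16 and quantile normalization were applied to all 25697 probes with neqc of limma 3.58.1 in R 4.3.3. The inferred background was 163 (SD 17.0) for Med1cKO and 168 (SD 21.9) for CON. Later steps used Python 3.11.15. The platform annotation, which is old, gave 1 gene symbol to 23978 probes, several to none and none to 1719, and 23962 were matched by Entrez ID to RefSeq (GRCm38.p6). The main probe of a gene was that of highest mean normalized level, and a gene was counted when at least 2-fold different. No fold is given where a bound is below 1. The dimmest detected log2 level was 6.20 for Med1cKO and 6.41 for CON. The procedure was tested on simulated data with changes planted in probes detected on both arrays. The lower bounds for genes seen on 1 array were not part of that test. Each matrix gene detected on at least 1 array is named, and from each other list at most 5 genes by size of ratio, besides markers named as undetected. Vcan, Dpt and other undetected genes have no ratio. Igfbp4, Crabp1, Ebf1, Thy1, S100a8, the promoters to print and their 4 motifs were chosen after their values were seen. The members and lists were chosen with earlier results of these data known. No batch was given in the sources used here. Arrays limit precision by their number, here 1 per group.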

Additional observations from a re-analysis of the deposited data

How the results depend on the processing

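With 1 array per group no paired analysis was possible because no replicate exists, and none could be left out. The 11 alternatives changed the background correction, normalization, offset, probe rule, detection limit or filter. Gpc3 was at least 2-fold lower in each of them, and every probe counted alone gave 2 lower, its own pair. The number of matrix genes at least 2-fold higher, 6 in the report, was 3 without background correction and 3 among genes detected on both arrays, and ran from 4 to 8 in the others that count genes. Over all genes these 2 settings gave 155 and 252 higher, against 314, and 44 and 124 lower, against 144. The authors' normalized values gave 163 higher and 46 lower, and an offset of 50 gave 95 lower. The median log2 ratio of 0.38 was -0.046 for genes detected on both arrays, which leaves out Dcn, Lum and Col1a1, and 0.073 with no filter, where 35 undetected genes enter. In the other 9 settings it lay between 0.15 and 0.45. No 2-fold gene changed sign. Sparc, at the 2-fold limit, ranged from 0.88 to 1.58, Col1a1 from 1.43 to 3.24 and Vim from 0.70 to 1.57 on the log2 scale. Signals close to background limit the fibrillar collagens, Lum, Loxl1 and Fbln2.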
